A study of Oryza sativa with 28 samples.

Results

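The SPL panicle architecture factors are 10 genes that encode transcription factors with an SBP domain, namely SPL1 (LOC_Os01g18850), SPL2 (LOC_Os01g69830), SPL3 (LOC_Os02g04680), SPL7 (LOC_Os04g46580), SPL12 (LOC_Os06g49010), SPL13 (LOC_Os07g32170), SPL14 (LOC_Os08g39890), SPL16 (LOC_Os08g41940), SPL17 (LOC_Os09g31438) and SPL18 (LOC_Os09g32944). They were taken by identifier from the 47919 genes of the expression tables, and all 10 were present. By their identifiers, SPL14 and SPL16 lie on chromosome 8 and SPL17 and SPL18 on chromosome 9. Their transcripts were followed by RNA-seq of young panicles from the indica rice line Wuxiang S (WXS), a photo-thermosensitive genic male-sterile line that carries a mutant tms5 locus in every group. The 4 groups, with 3 libraries each, were FP4 and SP4, the male-fertile WXS(F) and the male-sterile WXS(S) at the uninucleate period (P4), and FP3 and SP3, the same types at the meiosis period (P3). WXS(S) plants stayed in the paddy field in summer, at the warmer, restrictive temperature, with 14 h of light and 10 h of dark. WXS(F) plants were moved, when the panicle had reached about 1 cm, to a growth chamber at the permissive temperature, a mean of 22 °C, with the same day length and a relative humidity of 77%. Fertility type, temperature and growth place therefore cannot be told apart. The age of the plants was not given in the sources used here.

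SPL factors bind promoters through the SBP domain, and most of the family is held down by the microRNA miR156, which is cleared as the plant leaves the juvenile phase. In rice they are known for setting the number of tillers and panicle branches and the size and shape of the grain. SPL14 (also IPA1 or WFP) is the best known of them, and SPL7 and SPL17 act with it in branching. SPL13 and SPL16 are grain length and grain width genes, and SPL18 acts on grain weight and grain number. SPL3 and SPL12 are a pair of related genes known from crown root development. SPL1 belongs to the long SPL proteins with ankyrin repeats, which miR156 does not target.

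The 12 libraries held 30577833 to 51193158 counts. SP3 replicate 3 was the shallowest and had the lowest median correlation with its own group, 0.934 against 0.942 to 0.953 in the other 11 libraries. Replicates of a group differed by more than sampling noise, with a chi-square of at least 55.9 per degree of freedom, so each was used as 1 sample. They were described as biological replicates, without a statement that each came from separate plants. Whole panicles were ground, so fewer cells of a type and less RNA per cell cannot be told apart. The 26 marker genes of meiocytes, tapetum, dividing cells and green tissue examined beside the SPL genes had counts in every library (0 genes at 0).

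Among the SPL panicle architecture factors, the leading transcript was a different one at the 2 periods. Levels between genes were compared on the deposited FPKM, which is scaled to transcript length. At P4 SPL12 led in both types, with 31.6 ± 4.02 FPKM in FP4 and 21.5 ± 3.09 in SP4 (SD, n = 3). At P3 SPL14 led in both types, with 31.6 ± 0.948 FPKM in FP3 and 48.9 ± 3.85 in SP3. SPL15, an SPL gene outside these factors, was higher than all of them in every group. Its means were 104 FPKM in FP4, 117 in SP4, 90.4 in FP3 and 93.6 in SP3.

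Behind their leader, the order of the SPL panicle architecture factors differed between the types. In FP4 SPL2 followed SPL12 at 21.1 ± 6.11 FPKM, with libraries that overlapped those of SPL12, and then SPL3 (14.6 ± 0.749) and SPL1 (14.5 ± 0.327), which did not differ beyond their spread. In SP4 SPL13 (15.8 ± 1.21 FPKM) and SPL3 (14.8 ± 0.375) overlapped in the next places, and SPL14 was 11.3 ± 0.374. In FP3 SPL2 (26.5 ± 7.42 FPKM) overlapped both SPL14 above it and SPL12 (25.1 ± 1.16) below it, and SPL3 came next at 20.0 ± 0.385. In SP3 SPL3 was second at 27.7 ± 4.44 FPKM, separate from SPL14 above and from SPL13, SPL12 and SPL2 below, which lay between 9.04 and 10.8 and overlapped one another. SPL17, SPL18 and SPL7 were the lowest 3 in each group, with means of 0.0314 to 2.19 FPKM.

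Summed over the 10 genes, the FPKM was 106 ± 11.8 in FP4, 87.9 ± 3.51 in SP4, 134 ± 4.08 in FP3 and 123 ± 15.4 in SP3. SPL14 made up 5.32 ± 0.953% of that sum in FP4 and 12.9 ± 0.0975% in SP4, against 23.6 ± 1.04% in FP3 and 40.0 ± 2.71% in SP3. The share of SPL12 ran the other way, at 29.8 ± 1.12% in FP4 and 24.4 ± 2.90% in SP4, against 18.7 ± 1.04% in FP3 and 8.91 ± 2.68% in SP3. Within a library, SPL14 was 0.144 to 0.216 times SPL12 in FP4, 0.480 to 0.615 times in SP4, 1.24 to 1.28 times in FP3 and 3.49 to 5.54 times in SP3. The ranges of the 4 groups did not overlap. The smallest p that an exact permutation test of 3 libraries against 3 can give is 0.1, so these shares and ratios were described without a test.

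**Figure D1:**
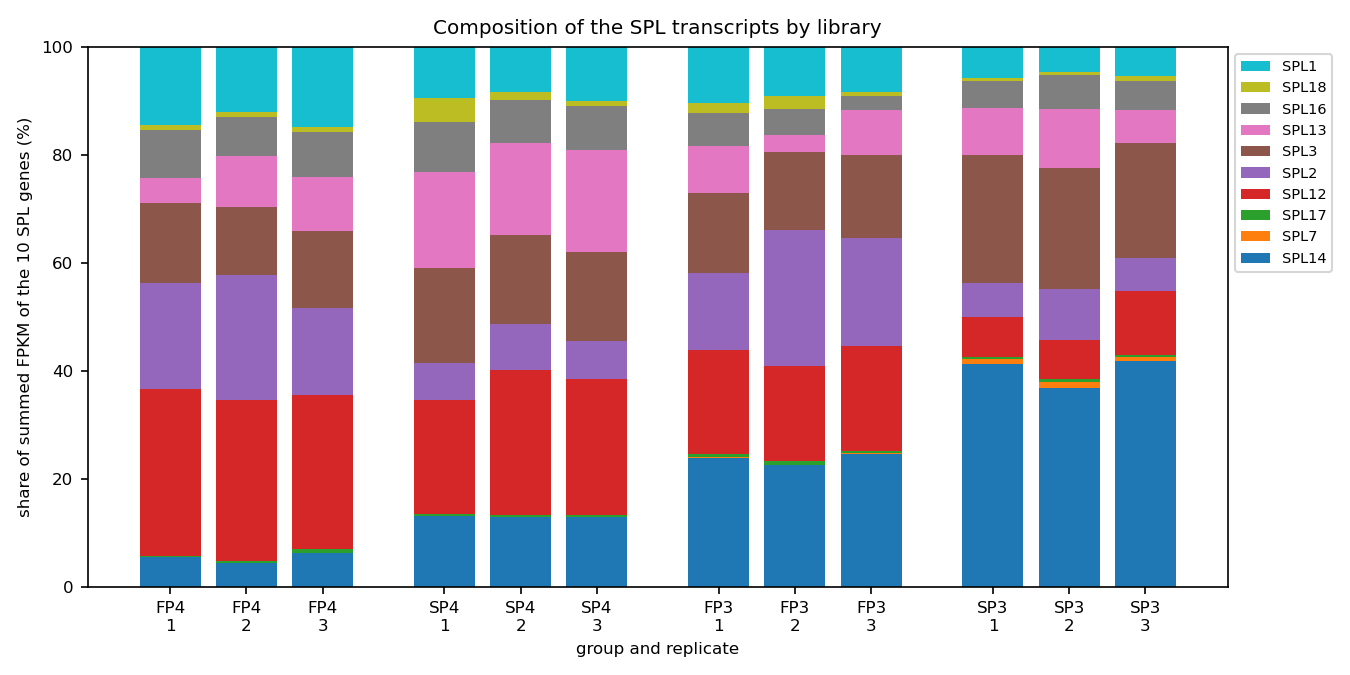
Share of each gene in the summed FPKM of the 10 SPL genes (y axis, percent) in each of the 12 libraries (x axis, group and replicate number), drawn as stacked bars. The SPL14 band at the bottom is 5.32% of the sum on average in FP4 and 40.0% in SP3, and the SPL12 band is 29.8% in FP4 and 8.91% in SP3.

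Between the types, SPL2 was the member called higher in WXS(F) at both periods. A gene was called when the fold change was above 2-fold and the adjusted p below 0.05 in the quasi-likelihood test of edgeR, adjusted after Benjamini and Hochberg over all genes tested. In FP4 versus SP4, 9 of the 10 members had enough counts for the test, SPL2 rose and SPL14 fell, and 22.3% of the 24645 genes tested were called, 15.4% higher and 6.87% lower. SPL1, SPL12 and SPL16 also had an adjusted p below 0.05 at less than 2-fold, as did 30.2% of all genes tested. In FP3 versus SP3, where all 10 were tested, SPL2 and SPL12 rose and SPL7 fell, with 21.5% of 24405 genes called, 14.8% higher and 6.74% lower. SPL1, SPL3 and SPL14 passed the adjusted p at less than 2-fold there, as did 21.3% of all genes. The median log2 fold change of the tested members was 0.24 in FP4 versus SP4 and 0.43 in FP3 versus SP3, and that of all genes tested was 0.00 and 0.04 in the same comparisons.

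Between the periods, SPL14 and SPL7 were lower at P4 in both types. In FP4 versus FP3 these were the 2 members called, both lower, with 19% of 24926 genes called, 12.9% higher and 6.13% lower. SPL1, SPL3 and SPL12 passed the adjusted p at less than 2-fold, as did 32.3% of all genes. In SP4 versus SP3 SPL14 and SPL7 fell and SPL12 rose, with 19.7% of 23601 genes called, 12.8% higher and 6.85% lower. SPL1, SPL3 and SPL13 passed the adjusted p at less than 2-fold, as did 20.6% of all genes. SPL7 entered each of these tests through its P3 counts, so its call there is to be read beside its counts. The median log2 fold change of the members was −0.32 in FP4 versus FP3 and 0.15 in SP4 versus SP3, beside −0.02 and 0.03 over all genes tested. FP3 versus SP3 and SP4 versus SP3 used the same SP3 libraries, and each other group also entered more than 1 comparison.

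**Figure D2:**
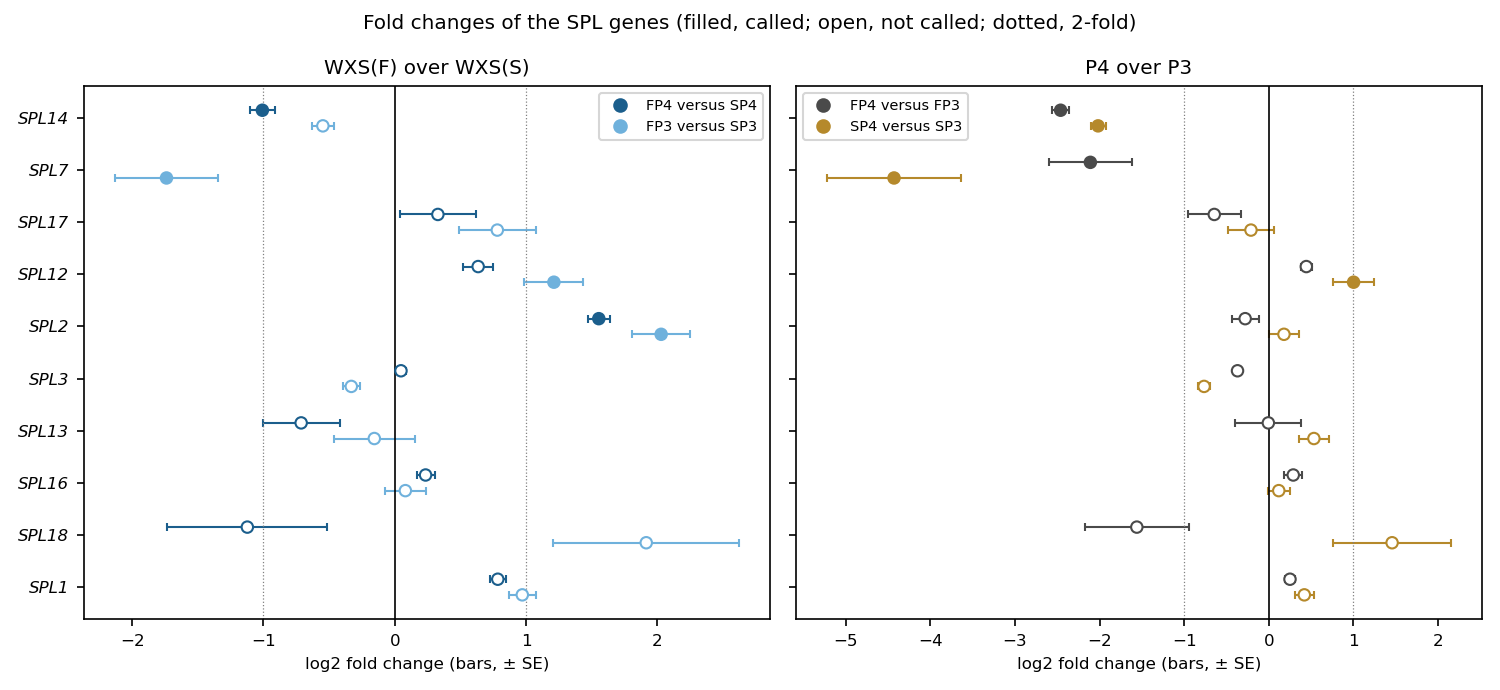
Log2 fold change of each SPL gene (x axis, points; bars, ± SE of the edgeR fit on 3 libraries a group) for WXS(F) over WXS(S) at P4 and P3 on the left and for P4 over P3 in each type on the right. Filled points passed 2-fold (dotted lines) and an adjusted p of 0.05, open points did not. SPL2 is filled on the right of 0 at both periods and SPL14 and SPL7 are filled on the left of 0 in both types, and SPL7 has no point for FP4 versus SP4, where it was not tested.

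SPL14, the branching factor, had the steepest change with the period among the well expressed members. Its levels in CPM, counts relative to the TMM-scaled library size, were 14.9, 13.9 and 17.7 in FP4, 30.2, 31.2 and 31.1 in SP4, 84.8, 82.3 and 89.0 in FP3 and 129, 121 and 135 in SP3. The 4 groups did not overlap, and the replicates of each lay close together. FP4 was 5.51-fold below FP3 (log2 −2.46 ± 0.10 SE, edgeR adjusted p = 6.09e-06), and SP4 was 4.05-fold below SP3 (log2 −2.02 ± 0.09, edgeR adjusted p = 4.35e-05). SPL14 was thus lower at P4 in 3 of 3 libraries of both types.

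Between the types SPL14 was lower in WXS(F) at both periods. FP4 was 2.01-fold below SP4 (log2 −1.01 ± 0.10 SE, edgeR adjusted p = 0.000249), just past the 2-fold limit, and the fold change ran between −1.11 and −0.92 over 14 alternative fits, 9 of which kept the call. The call was lost without FP4 replicate 1 (−0.98) and without FP4 replicate 2 (−0.94). FP3 was 1.46-fold below SP3 (log2 −0.55 ± 0.08, edgeR adjusted p = 0.00283). The change of this difference with the period, (FP4 − SP4) − (FP3 − SP3), was −0.40 ± 0.12 on the log2 scale (edgeR adjusted p = 0.0361). Its adjusted p lay between 0.00647 and 0.102 over 19 alternative fits and stayed below 0.05 in 7 of them.

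SPL7, which acts with SPL14 in tillering and branching, was at the edge of detection at P4. It had 6, 7 and 14 counts in FP4, 6, 0 and 10 in SP4, 66, 42 and 22 in FP3 and 163, 175 and 72 in SP3. The count of 0 in SP4 replicate 2 allows up to 3 counts, or 0.0847 CPM, in that library, counting error alone. SPL7 was highest in all 3 libraries of SP3 and next in those of FP3, without overlap between any of SP3, FP3 and the P4 groups, whereas FP4 and SP4 overlapped.

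FP3 was 3.34-fold below SP3 for SPL7 (log2 −1.74 ± 0.39 SE, edgeR adjusted p = 0.0123). FP4 was below FP3 (log2 −2.11 ± 0.49, edgeR adjusted p = 0.012) and SP4 was below SP3 (log2 −4.43 ± 0.79, edgeR adjusted p = 0.00581). In each of these 3 comparisons the 6 fits that left out 1 library kept the call. Limma on log2(FPKM + 1), a scale that shrinks low genes, kept the direction and not the 2-fold size in FP3 versus SP3 (−0.78) and in FP4 versus FP3 (−0.25). With so few counts at P4 the size of the stage difference is loosely set, and the SP4 versus SP3 value ran between −5.13 and −3.88 when 1 library was left out.

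SPL17, the closest relative of SPL14, was low in every group and passed no test between the types or the periods. It had 1.55, 2.43 and 3.25 CPM in FP4, 1.74, 1.98 and 1.98 in SP4, 4.10, 4.40 and 2.81 in FP3 and 1.62, 2.76 and 2.39 in SP3. FP3 held the highest values, 2 of its 3 libraries lay above all others, and the remaining one overlapped FP4. The log2 fold change was 0.78 ± 0.29 in FP3 versus SP3 (edgeR adjusted p = 0.0707) and −0.64 ± 0.31 in FP4 versus FP3 (edgeR adjusted p = 0.132). The steep stage difference of SPL14 therefore had no called counterpart in SPL17, and the difference between the 2 genes was not tested.

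**Figure D3:**
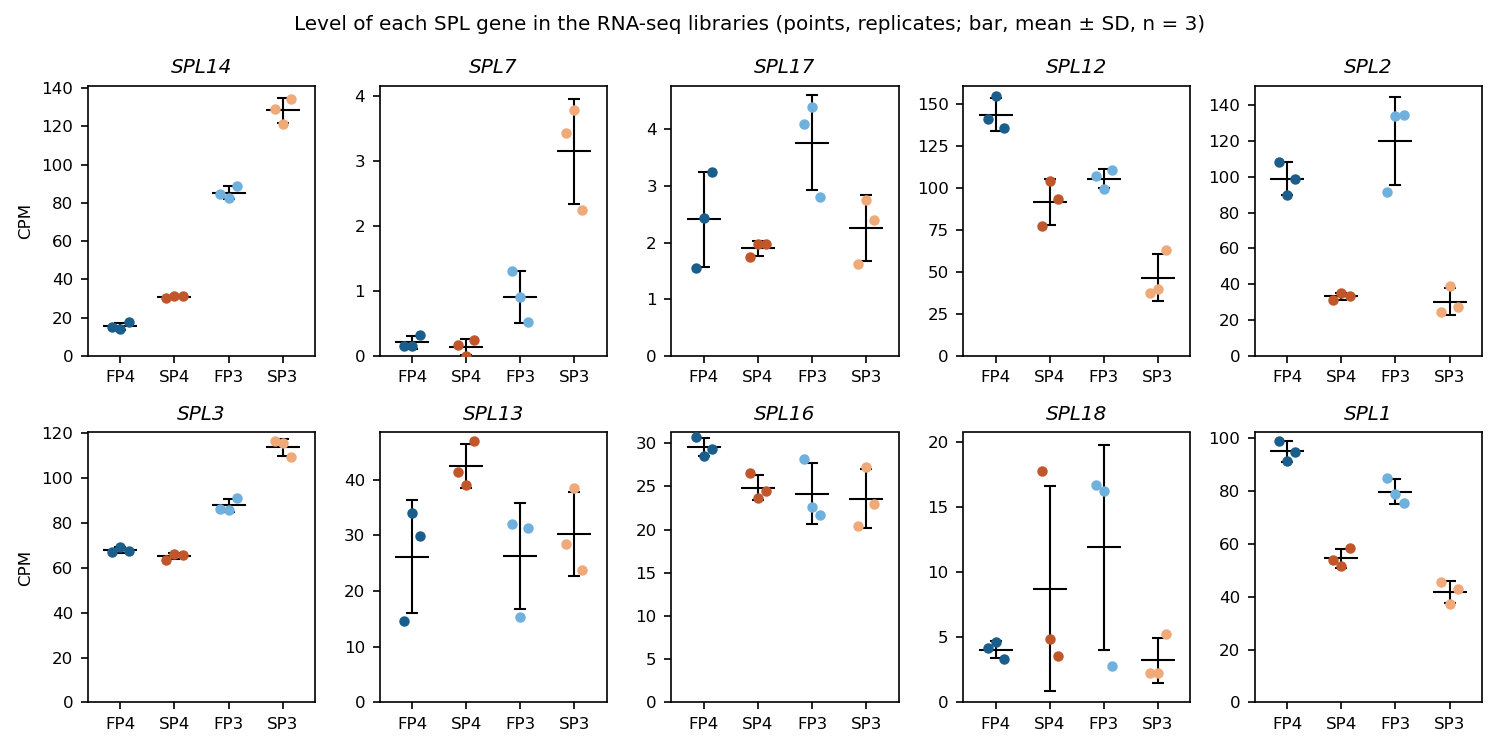
Level of each SPL gene in CPM (y axis, starting at 0, a different scale in each panel) in the 4 groups (x axis). Points are the 3 libraries of a group, and the black bars are their mean ± SD. The groups of SPL14 do not overlap, with 14.9, 13.9 and 17.7 CPM in FP4 and 129, 121 and 135 CPM in SP3. SPL18 has SP4 replicate 1 far above and FP3 replicate 3 far below the others of their group.

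SPL12 was higher in WXS(F) at P3 and was higher at P4 than at P3, opposite to SPL14 on both axes. It had 141, 155 and 136 CPM in FP4, 77.1, 104 and 93.3 in SP4, 107, 99.2 and 111 in FP3 and 37.5, 39.7 and 62.9 in SP3. FP4 lay above and SP3 below every other library, and SP4 and FP3 overlapped. FP3 was 2.32-fold above SP3 (log2 1.21 ± 0.22 SE, edgeR adjusted p = 0.0058), with the call kept in each of 14 alternative fits. FP4 was 1.55-fold above SP4 (log2 0.64 ± 0.11, edgeR adjusted p = 0.00396), under the 2-fold limit.

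With the period, SPL12 rose in SP4 relative to SP3 (log2 1.00 ± 0.24 SE, edgeR adjusted p = 0.0171), on the 2-fold limit itself. It stayed called in 5 of 14 alternative fits. The call was lost without SP3 replicate 1 (0.83), SP3 replicate 2 (0.88), SP4 replicate 2 (0.90) or SP4 replicate 3 (0.99). SP3 replicate 3, the shallow library, was the highest of SP3, and without it the value was 1.25. FP4 was 1.36-fold above FP3 (log2 0.44 ± 0.06, edgeR adjusted p = 0.00161).

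SPL3, the relative of SPL12 that acts on crown roots through MADS50, was among the most even members within groups. It had 67.1, 69.4 and 67.7 CPM in FP4, 63.7, 66.2 and 65.7 in SP4, 86.5, 85.9 and 91.3 in FP3 and 117, 116 and 110 in SP3. The P3 groups lay above the P4 groups, and SP3 above FP3, without overlap, and FP4 lay just above SP4. SP4 was 1.70-fold below SP3 (log2 −0.77 ± 0.07 SE, edgeR adjusted p = 0.000457) and FP4 was 1.29-fold below FP3 (log2 −0.37 ± 0.04, edgeR adjusted p = 0.000365), both under 2-fold.

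The difference of SPL3 between the types was present at P3 and not detected at P4. FP3 was 1.26-fold below SP3 (log2 −0.33 ± 0.06 SE, edgeR adjusted p = 0.00721), whereas FP4 versus SP4 gave 0.05 ± 0.04 (edgeR adjusted p = 0.346), and −0.061 with library totals in place of TMM. The difference of these differences was 0.44 ± 0.07 on the log2 scale (edgeR adjusted p = 0.00188). It was the smallest adjusted p of the members for the change of the type difference with the period, and it kept its sign in all 19 alternative fits, with 16 of them below 0.05.

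SPL2 had the largest called difference between the types and none with the period. It had 108, 89.7 and 99.0 CPM in FP4, 31.3, 35.1 and 33.6 in SP4, 91.6, 134 and 134 in FP3 and 24.6, 38.9 and 27.4 in SP3. All 6 WXS(F) libraries lay above all 6 WXS(S) libraries, while FP4 overlapped FP3 and SP4 overlapped SP3. FP4 was 2.94-fold above SP4 (log2 1.55 ± 0.08 SE, edgeR adjusted p = 1.93e-05) and FP3 was 4.08-fold above SP3 (log2 2.03 ± 0.22, edgeR adjusted p = 0.000775), called in all 14 alternative fits of each comparison. Over those fits the FP3 versus SP3 value ran between log2 1.47 and 2.21. The log2 fold change with the period was −0.28 ± 0.16 in WXS(F) (edgeR adjusted p = 0.188) and 0.18 ± 0.18 in WXS(S) (edgeR adjusted p = 0.458). In WXS(S) limma on log2(FPKM + 0.1) gave −0.40, so its direction there depends on the scale.

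The counts and the FPKM of SPL2 did not keep 1 ratio over the libraries. The counts per FPKM of a gene, after removal of the factor common to a library, were compared between its highest and lowest library. For SPL2 the largest value was 1.80 times the smallest, against a median of 1.10 and a 95th percentile of 1.59 over 15023 genes with at least 100 counts in every library. The same ratio was 1.79 for SPL16, 1.97 for SPL18 and 1.00 for SPL14, and it was 1.80 for SPL7 over its libraries with at least 10 counts. The cause was not tested. The orders by FPKM rest on a less even scale for SPL2, SPL18 and SPL7 than for SPL14, SPL12 (1.09) and SPL3 (1.10). For SPL16 the ratio came from FP3 replicate 3, at 1.70 times the median of the gene, with the other libraries between 0.951 and 1.07. Relative to its median, the counts per FPKM of SPL2 were 0.723, 0.718 and 0.798 in SP3 and 1.03, 0.832 and 1.06 in FP3. The size of the FP3 versus SP3 difference of SPL2 therefore also depends on the scale.

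SPL1, the long SPL gene, was higher in WXS(F) at both periods at just under 2-fold. It had 99.1, 91.3 and 94.7 CPM in FP4, 53.9, 51.5 and 58.5 in SP4, 85.0, 78.9 and 75.7 in FP3 and 45.5, 37.4 and 42.8 in SP3. The groups stood apart in the order FP4, FP3, SP4 and SP3, without overlap. FP4 was 1.72-fold above SP4 (log2 0.79 ± 0.06 SE, edgeR adjusted p = 0.000102) and FP3 was 1.96-fold above SP3 (log2 0.97 ± 0.10, edgeR adjusted p = 0.000687). Without FP3 replicate 3 the FP3 versus SP3 value passed the 2-fold limit (log2 1.01). With the period SPL1 was 1.19-fold higher in FP4 than in FP3 (log2 0.25 ± 0.05, edgeR adjusted p = 0.00934) and 1.34-fold higher in SP4 than in SP3 (log2 0.42 ± 0.11, edgeR adjusted p = 0.0229).

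Of the grain genes, SPL16 and SPL13 were called in no comparison. SPL16, also GW8, had group means of 29.5 ± 1.08 CPM in FP4, 24.9 ± 1.46 in SP4, 24.2 ± 3.51 in FP3 and 23.5 ± 3.41 in SP3. FP4 stood above SP4 without overlap (log2 0.24 ± 0.07 SE, edgeR adjusted p = 0.0267, 1.18-fold), and that adjusted p was below 0.05 in 5 of 14 alternative fits. FP3 and SP3 overlapped (log2 0.08 ± 0.16, edgeR adjusted p = 0.713), with −0.22 by limma on log2(FPKM + 0.1).

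SPL13, also GLW7, had 14.6, 33.9 and 29.9 CPM in FP4, 41.4, 39.0 and 46.8 in SP4, 32.1, 15.3 and 31.4 in FP3 and 28.4, 38.5 and 23.8 in SP3. SP4 held the 3 highest values, and FP4 replicate 1 and FP3 replicate 2 lay far below the others of their groups. FP4 versus SP4 gave a log2 fold change of −0.71 ± 0.29 SE (edgeR adjusted p = 0.085), and FP3 versus SP3 gave −0.16 ± 0.31 (edgeR adjusted p = 0.719). SP4 was 1.45-fold above SP3 (log2 0.53 ± 0.17, edgeR adjusted p = 0.0485), with 2 of 14 alternative fits below 0.05.

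SPL18, the relative of SPL16 that acts on grain number, was set by single libraries. It had 4.19, 4.62 and 3.31 CPM in FP4, 17.8, 4.88 and 3.53 in SP4, 16.7, 16.2 and 2.83 in FP3 and 2.23, 2.26 and 5.22 in SP3. SP4 replicate 1 and FP3 replicates 1 and 2 were above 16 CPM, and the other 9 lay between 2.23 and 5.22. On FPKM the gap was smaller, with 3.76, 2.66 and 3.09 in those libraries and 0.706 to 1.29 in the other 9. No comparison between the types or the periods called it, with log2 1.92 ± 0.71 SE in FP3 versus SP3 (edgeR adjusted p = 0.0688) and −1.12 ± 0.61 in FP4 versus SP4 (edgeR adjusted p = 0.17). Without FP3 replicate 3 SPL18 was called higher in FP3 than in SP3 (log2 2.38, edgeR adjusted p = 0.0132), and lower in FP4 than in FP3 (log2 −2.03, edgeR adjusted p = 0.00047). Without SP4 replicate 1 the FP4 versus SP4 value was −0.08. The locus with the next identifier, LOC_Os09g32948, had 4965 counts in SP4 replicate 1, beside 3629 and 5380 in the other SP4 libraries, and so did not share that pattern.

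No member was called for a change of the type difference with the period by edgeR, with 9.87% of 26392 genes called, 3.26% with a positive and 6.62% with a negative change. SPL3 and SPL14 passed the adjusted p at less than 2-fold, as did 9.92% of all genes. At any fold 19.8% of all genes passed it. DESeq2 called 2 members, SPL7 (log2 2.42) and SPL18 (log2 −2.96). Of the 47034 genes it fitted, 1292 were called with a positive and 1955 with a negative change. The edgeR value of SPL18 was −3.00 ± 1.01 (adjusted p = 0.0611) and that of SPL7 was 2.37 ± 0.99 (adjusted p = 0.12). SPL18 was called by edgeR without FP3 replicate 3 (−3.47), SP3 replicate 3 (−3.49) or SP4 replicate 3 (−3.38).

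FP3 was also set beside SP4, where type and period both differ. SPL14 was 2.75-fold higher in FP3 (log2 1.46 ± 0.05 SE, edgeR adjusted p = 4.23e-06) and SPL2 was 3.58-fold higher (log2 1.84 ± 0.16, edgeR adjusted p = 0.000184). SPL7, which with 6, 0 and 10 counts in SP4 entered this test through FP3, was the third member called higher and none was lower, with 17.7% of 24130 genes called, 10.3% higher and 7.39% lower. SPL1, SPL3 and SPL17 passed the adjusted p at less than 2-fold, as did 29.8% of all genes. The SPL7 call (log2 2.68 ± 0.85, edgeR adjusted p = 0.04) was lost in 5 of the 6 fits that left out 1 library and kept without SP4 replicate 2 (2.14). SPL17 was called higher without FP3 replicate 3 (1.16), SP4 replicate 2 (1.02) or SP4 replicate 3 (1.01).

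Among 9 other SPL genes, SPL10, a trichome factor, and SPL8, the ligule gene LIGULELESS1, were called in the most comparisons. SPL10 averaged 8.84 ± 0.916 CPM in FP4, 39.3 ± 1.98 in SP4, 25.6 ± 1.31 in FP3 and 81.6 ± 30.9 in SP3 (SD, n = 3). It was lower in WXS(F) at P4 (log2 −2.17 ± 0.10 SE, edgeR adjusted p = 9.79e-06) and at P3 (−1.62 ± 0.25, 0.0028), and lower at P4 than at P3 in WXS(F) (−1.53 ± 0.10, 4.63e-05) and in WXS(S) (−1.01 ± 0.24, 0.0172). SPL8 rose with the period, with log2 1.20 ± 0.15 in FP4 versus FP3 (edgeR adjusted p = 0.000847) and 2.03 ± 0.41 in SP4 versus SP3 (edgeR adjusted p = 0.00856). SPL10 was the 1 lower call among the 9 in FP4 versus SP4, beside 15.4% higher and 6.87% lower over all genes tested. SPL10 and SPL5 were the 2 lower calls in FP3 versus SP3, beside 14.8% higher and 6.74% lower over all genes. The 9 had 0 higher calls in either comparison. Between the periods SPL10 was the 1 lower and SPL8 the 1 higher call in each type. Over all genes 12.9% were higher and 6.13% lower in FP4 versus FP3, and 12.8% and 6.85% in SP4 versus SP3.

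Of the 25 genes listed as other regulators of panicle architecture, 24 were in the tables and 18 to 20 had enough counts for a test. In FP4 versus SP4, 4 of 18 rose and 4 fell, beside 15.4% higher and 6.87% lower over all genes. In FP3 versus SP3, 1 of 20 rose and 3 fell, beside 14.8% and 6.74%. In FP4 versus FP3, 2 of 20 rose and 5 fell, beside 12.9% and 6.13%. In SP4 versus SP3, 0 of 20 rose and 6 fell, beside 12.8% and 6.85%. Their median log2 fold change was −0.72 in FP4 versus FP3 and −0.76 in SP4 versus SP3, beside −0.02 and 0.03 over all genes tested.

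The genes called in the most comparisons were RFL, D10 and PLA1. RFL, the rice LEAFY gene that promotes panicle branching, had 0, 2 and 7 counts in FP4, 11, 7 and 4 in SP4, 114, 68 and 99 in FP3 and 294, 361 and 129 in SP3. Both P3 groups stood above both P4 groups, and SP3 above FP3. RFL was lower in FP3 than in SP3 (log2 −1.52 ± 0.30 SE, edgeR adjusted p = 0.00776) and fell with the period in WXS(F) (−4.80 ± 0.76, 0.00235) and in WXS(S) (−4.85 ± 0.47, 0.0006). With so few counts at P4 it entered the stage tests through the P3 libraries, was not tested in FP4 versus SP4, and the size of its stage difference is loosely set.

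D10, which makes the carotenoid cleavage enzyme CCD8 of strigolactone synthesis, was higher in WXS(F), with log2 1.82 ± 0.28 SE at P4 (edgeR adjusted p = 0.00211) and 2.15 ± 0.45 at P3 (edgeR adjusted p = 0.00936). It had 41, 34 and 40 counts in FP4, 10, 9 and 9 in SP4, 120, 65 and 118 in FP3 and 18, 17 and 25 in SP3, so that the types did not overlap at either period. D10 also fell in FP4 relative to FP3 (log2 −1.28 ± 0.30, edgeR adjusted p = 0.0126). PLA1, a cytochrome P450 gene of leaf initiation, had 6, 6 and 0 counts in FP4, 18, 34 and 32 in SP4, 100, 98 and 95 in FP3 and 92, 125 and 45 in SP3. It fell in FP4 relative to SP4 (log2 −2.96 ± 0.80, edgeR adjusted p = 0.0207) and relative to FP3 (log2 −4.44 ± 0.71, edgeR adjusted p = 0.00246), and in SP4 relative to SP3 (log2 −1.39 ± 0.37, edgeR adjusted p = 0.0237). PLA1 entered both FP4 comparisons through SP4 and FP3, where it is high.

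Of the known partners of SPL14, D53 and TB1 were called in no comparison and DEP1 in 1. D53, the strigolactone repressor that binds SPL14, averaged 27.4 ± 4.71 CPM in FP4, 39.0 ± 11.5 in SP4, 27.4 ± 7.52 in FP3 and 23.4 ± 6.77 in SP3, and the types overlapped at both periods. TB1, a branching repressor whose promoter SPL14 binds, had 3 to 67 counts in a library, with adjusted p of 0.274 to 0.882 in the 4 comparisons by edgeR. DEP1, another SPL14 target and a G protein subunit of panicle density, averaged 11.7 ± 1.02 CPM in FP4, 12.4 ± 1.98 in SP4, 17.1 ± 4.31 in FP3 and 27.5 ± 1.45 in SP3. It fell in SP4 relative to SP3 (log2 −1.11 ± 0.14 SE, edgeR adjusted p = 0.00144) and was 1.47-fold lower in FP4 than in FP3 (edgeR adjusted p = 0.0469).

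GL7, the grain shape gene that SPL16 represses, was lower in WXS(F). It averaged 143 ± 4.02 CPM in FP4, 292 ± 4.53 in SP4, 197 ± 4.09 in FP3 and 394 ± 14.1 in SP3, with no overlap between any of the groups. FP4 was 2.07-fold below SP4 (log2 −1.05 ± 0.04 SE, edgeR adjusted p = 4.29e-06) and FP3 was 1.94-fold below SP3 (log2 −0.95 ± 0.07, edgeR adjusted p = 0.000178). SPL16 itself differed by 1.18-fold between FP4 and SP4 and by 1.06-fold between FP3 and SP3.

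LAX1, a bHLH factor of axillary meristems, had 3, 3 and 5 counts in FP4, 0 in each SP4 library, 5, 8 and 6 in FP3 and 7, 5 and 9 in SP3. A count of 0 allows up to 3 counts in a library. It was too low to be tested, as were TAW1, FZP and APO1, genes of early branch and spikelet meristems, which had 0 to 11 counts in a library.

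**Figure D4:**
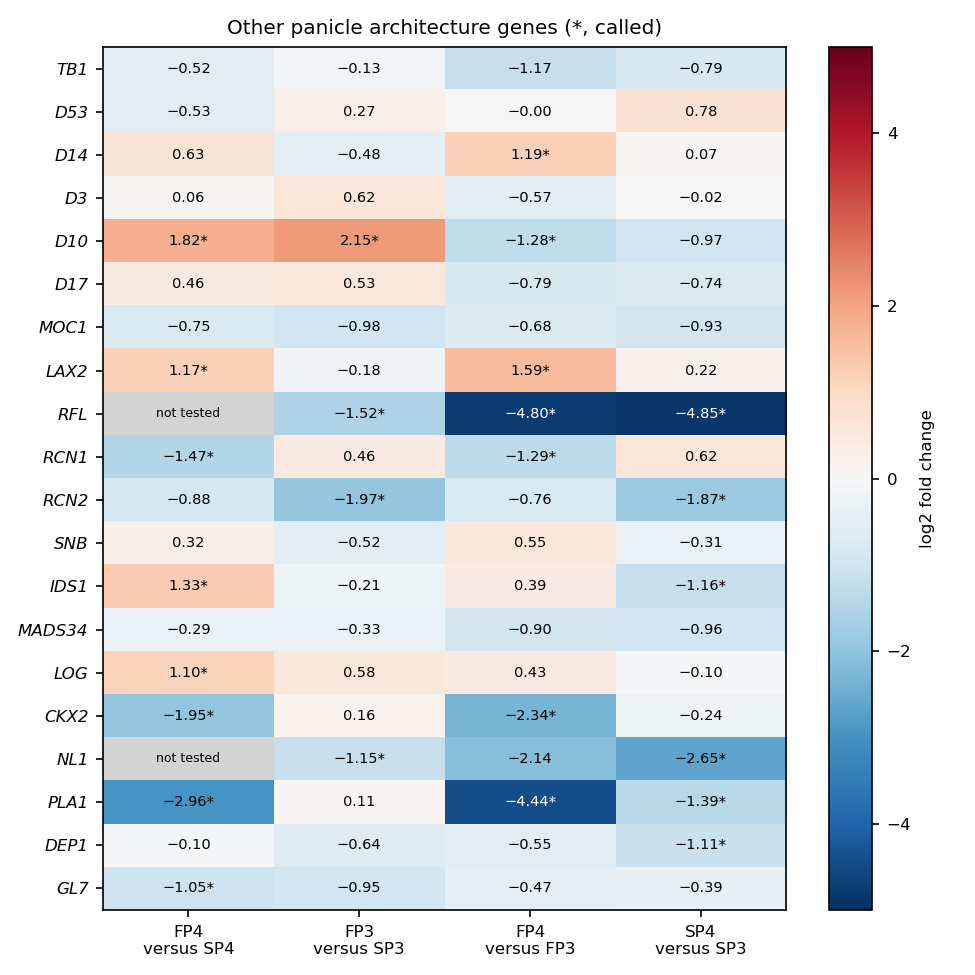
Log2 fold change (colour and printed value, red higher and blue lower in the first named group) of the 20 other panicle architecture genes tested in at least 1 of the 4 comparisons (columns). An asterisk marks a call, and grey cells were not tested for low counts. In SP4 versus SP3 all 6 calls are blue, RFL at −4.85 the deepest, and D10 is red in both comparisons of the types.

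Markers of other cells also differed between the groups. The summed CPM of 6 dividing cell markers was 62.5 to 69.9 in FP4, 204 to 218 in SP4, 128 to 134 in FP3 and 272 to 292 in SP3. Of these markers 5 of 6 were called lower in FP4 versus SP4 and 3 of 6 in FP3 versus SP3. Over all genes tested 6.87% were called lower in FP4 versus SP4 and 6.74% in FP3 versus SP3. The 6 meiocyte markers summed to 66.3 to 70.1 CPM in FP4, 203 to 211 in SP4, 160 to 170 in FP3 and 329 to 351 in SP3. Of these, 4 of 6 were called lower in FP4 versus SP4 and 3 of 6 in FP3 versus SP3. MEL1 was the largest part of each sum, with means of 30.3, 130, 111 and 259 CPM in that order. The others were less alike: REC8 and DMC1A were called in 0 comparisons, and ZEP1 averaged 14.3 CPM in FP3 and 12.5 in SP3. Like these sums, SPL14, SPL7 and SPL3 were highest in SP3, and FP4 had the lowest SPL14. SPL3 was not lowest there, with means of 68.1 CPM in FP4 and 65.2 in SP4. The middle groups differed, since both sums were higher in SP4 than in FP3. SPL14, SPL7 and SPL3 were instead higher in FP3 than in SP4, without overlap. SPL1 and SPL12 ran opposite to the sums at the extremes, with FP4 above and SP3 below every other library.

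The 10 tapetum markers summed to 1783 to 1902 CPM in FP4, 467 to 480 in SP4, 199 to 215 in FP3 and 174 to 194 in SP3. C6 was the largest single part in FP4, with means of 949, 3.39, 33.0 and 1.15 CPM in that order. In FP4 versus SP4, 4 of the 10 were called higher and 2, TDR and TIP2, lower, beside 15.4% and 6.87% over all genes. In FP3 versus SP3, 4 of the 10 were called higher and 3 lower, beside 14.8% and 6.74%. The 4 green tissue markers summed to 673 to 772 CPM in FP4, 328 to 371 in SP4, 123 to 132 in FP3 and 66.5 to 103 in SP3. CAB made up most of each sum, with means of 702, 314, 120 and 61.7 CPM in that order. Called higher were 4 of 4 in FP4 versus FP3 and 3 of 4 in SP4 versus SP3, beside 12.9% and 12.8% over all genes. Between the types 1 of 4 was called higher and 1 lower at each period. RBCS (LOC_Os12g17600) averaged 14.8 CPM in FP4 against 32.5 in SP4, and 6.03 in FP3 against 21.1 in SP3. The part of these cell types in the SPL values was not tested.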

How the data were processed

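RNA-seq of young panicles was used from 12 libraries, 3 for each of FP4, SP4, FP3 and SP3, grouped by sample title. The authors used HISAT2 against the MSU7 genome for alignment and StringTie for quantification. They deposited counts per gene as whole numbers without normalization, and the authors also deposited FPKM, which is scaled to length and library. Counts were tested with edgeR 4.0.16 in R 4.3.3 (filterByExpr, TMM, glmQLFit and glmQLFTest) on all genes of the 6 libraries of each pair of groups, and on all 12 libraries for the interaction of type and stage. Calls required more than 1 unit of log2 fold change in either direction, with p adjusted after Benjamini and Hochberg below 0.05. SE is the log2 fold change divided by the square root of F. The test was run on simulated counts with known changes planted only in genes above a minimum mean level, so lower genes were not covered. Alternatives were DESeq2 1.42.0, limma 3.58.1 on log2(FPKM + 1) and log2(FPKM + 0.1), library totals, no filter, a minimum of 10 counts in every library, a replicate block, 1 model over all 12 libraries and leaving out each library. Levels were summarised in pandas 2.3.3 (Python 3.11.15) and plotted in matplotlib 3.10.9.

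The genes named were every SPL member, those of the other SPL genes and of the panicle list called in the most comparisons, and TB1, D53 and LAX1. DEP1, GL7, SPL5, SPL15, MOC1, IDS1, SNB, RCN1, LOG, CKX2, LAX2, D14 and the untested low genes were named after their values were seen. The members and lists were chosen with earlier results of these data known. The ATAC-seq and ChIP-seq data, gene positions and sequences at these genes were not analysed here.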

Additional observations from a re-analysis of the deposited data

Results flagged for a closer look

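By the interaction of type and stage in edgeR, the effect of fertility type was not the same at P4 as at P3 for 2 of the 10 SPL genes and 4 of the 20 other panicle genes tested, by an adjusted p below 0.05 at any fold. Over all genes tested 19.8% passed the same threshold, so these counts are at the background. For SPL3 the change was 0.44 on the log2 scale (adjusted p = 0.00188), with no difference detected at P4 and WXS(F) lower at P3. For SPL14 it was −0.40 (adjusted p = 0.0361), the difference being the deeper one at P4, and 7 of 19 alternative fits kept the adjusted p below 0.05. Among the spikelet meristem AP2 factors, IDS1 gave 1.59 (adjusted p = 0.000932), with 19.6, 16.3 and 21.4 CPM in FP4 and 7.69, 7.85 and 7.09 in SP4 against 17.4, 14.0 and 12.2 in FP3 and 14.4, 17.3 and 20.3 in SP3. SNB gave 0.91 (adjusted p = 0.00196). RCN1, a gene of the TFL1 type, gave −1.86 (adjusted p = 0.0182), and PLA1 gave −3.01 (adjusted p = 0.0312), where FP4 held 0 to 6 counts and the size is loosely set.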

How the results depend on the processing

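No called fold change reversed in an alternative. Of the fold changes of single SPL genes, 814 kept their direction and side of the threshold, 25 lost the call, 13 gained it and 20 changed sign, all in comparisons where the gene was not called. With limma on log2(FPKM + 1) and log2(FPKM + 0.1), SPL16 in FP3 versus SP3 was −0.19 and −0.22, SPL3 in FP4 versus SP4 −0.020 and −0.021, SPL2 in SP4 versus SP3 −0.36 and −0.40 and SPL2 for the interaction 0.048 and 0.074. SPL3 in FP4 versus SP4 was −0.061 with library totals, and SPL13 in FP4 versus FP3 was 0.014 with at least 10 counts. Leaving out 1 library gave −0.35 to 0.074 for SPL13 in FP3 versus SP3 and −0.28 to 0.28 in FP4 versus FP3, and for SPL16 −0.064 to 0.16 in FP3 versus SP3, −0.019 to 0.22 in SP4 versus SP3 and −0.17 to 0.028 in FP3 versus SP4. The number of SPL genes called in FP4 versus SP4 was 1 with at least 10 counts in every library, with limma on log2(FPKM + 1) and with 1 model over all 12 libraries, where SPL14 stood at −0.98, −0.92 and −0.99. In FP4 versus FP3 it was 1 with at least 10 counts, with limma on log2(FPKM + 1) and with the replicate block, where SPL7 had an adjusted p of 0.0554 by edgeR. In SP4 versus SP3 it was 1 with at least 10 counts. For the interaction it was 2 with DESeq2, 1 with at least 10 counts and 1 with limma on log2(FPKM + 0.1). A minimum of 10 counts in every library removes SPL7.

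Leaving out 1 library at a time gave 3 to 5 SPL genes called in FP3 versus SP3, 1 to 2 in FP4 versus SP4 and 0 to 1 for the interaction. The 5 were reached without FP3 replicate 3, when SPL1 (1.01) and SPL18 were added, and the 1 in FP4 versus SP4 without FP4 replicate 1 or 2. For the interaction the 1 was SPL18.

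Over all genes, 3434 were called in FP3 versus SP3 with at least 10 counts, against 5259. With limma on log2(FPKM + 1) the counts were 2381 in FP3 versus SP3, 2493 against 5494 in FP4 versus SP4, 1924 against 4731 in FP4 versus FP3, 2016 against 4639 in SP4 versus SP3, 1880 against 4263 in FP3 versus SP4 and 1356 against 2606 for the interaction. Library totals in place of TMM moved the median log2 fold change of all genes to −0.11 in FP4 versus SP4, −0.12 in FP4 versus FP3 and −0.15 for the interaction.

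Same-numbered libraries correlated between −0.0584 and 0.0277 in their deviations from the group means, and differently numbered ones between −0.0528 and 0.043. These small correlations over all genes cannot show whether the replicate numbers pair the libraries, so the block was run as an alternative. With the replicate block the SPL7 call was lost in FP4 versus FP3 and in FP3 versus SP4 (adjusted p = 0.0996 by edgeR). The peak thresholds and overlaps listed for open chromatin at the SPL genes were not run. Depth limits SPL7 at P4, LAX1 and TB1.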

Other observations

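LOG, CKX2 and LAX2 were among the panicle genes called in FP4 versus SP4, whereas MOC1 (edgeR adjusted p = 0.265) and TB1 (edgeR adjusted p = 0.714), which also act in axillary meristems, were not. LOG, which activates cytokinin, averaged 16.9 ± 1.84 CPM in FP4 and 7.83 ± 0.793 CPM in SP4 without overlap (SD, n = 3, log2 1.10 ± 0.12 SE, edgeR adjusted p = 0.000448). CKX2 (Gn1a), a cytokinin oxidase that limits grain number, had 4, 3 and 6 counts in FP4 and 14, 20 and 10 in SP4, at the edge of detection (log2 −1.95 ± 0.50, edgeR adjusted p = 0.0168), and entered the test through SP4. LAX2, an axillary meristem gene, had 2.32, 2.59 and 2.47 CPM in FP4 and 1.15, 1.33 and 0.763 in SP4 (log2 1.17 ± 0.25, edgeR adjusted p = 0.00786). At P3 LOG was 1.49-fold higher in FP3 than in SP3 without overlap (edgeR adjusted p = 0.0159), and CKX2 (log2 0.16) and LAX2 (log2 −0.18) did not pass the test. Their change of the type difference with the period gave adjusted p of 0.0515 for LOG, 0.0515 for CKX2 and 0.22 for LAX2 by edgeR.

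D14, the strigolactone receptor, had 115, 117 and 65.9 CPM in FP4, 74.0, 73.5 and 43.5 in SP4, 51.5, 49.3 and 29.0 in FP3 and 63.7, 76.1 and 47.3 in SP3. It rose in FP4 relative to FP3 (log2 1.19 ± 0.30 SE, edgeR adjusted p = 0.0152), and the third replicate was the lowest of its group in all 4 groups.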
